A study of Mus musculus with 4 samples.

Results

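The genes described here are 10 of the 53715 genes in the count matrices: the heavy chain constant region genes Igha, Ighg1, Ighg2b, Ighg2c, Ighg3, Ighm and Ighd, the light chain constant region genes Igkc and Iglc1, and Jchain, the gene of the joining chain. They were chosen by family and selected on earlier values of these data, the log2 differences of the leading ones between libraries labelled knockout and wild type. Their differences in that contrast are therefore given as a description, with no test.

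The study compared nuclei of inguinal white adipose tissue, the fat pad of the groin, from wild-type mice and from mice with a knockout of PTRF, whose gene is now called Cavin1 and encodes a coat protein of caveolae. All mice were C57BL/6N and 6 months of age, and no treatment is named for either genotype. Each genotype has 2 single-nucleus RNA-seq libraries, each titled as coming from a separately numbered mouse. The labels do not say in which cells or by what allele PTRF was removed.

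The labels go against the targeted gene. Cavin1 had 40 and 9 UMIs (unique molecular identifiers, counts of single captured transcripts) in the libraries labelled WT 1 and WT 2, and 730 and 1759 in those labelled knockout 1 and 2. The deposited files of each library also carry the opposite genotype in their names. The libraries are therefore called by their labels throughout, as WT-labelled 1 and 2 and KO-labelled 1 and 2, and every direction below is one between labels. In this order the libraries kept 15528, 6664, 11988 and 15887 nuclei, with 22139962, 8623219, 13533002 and 34819482 UMIs. Adipocyte-like nuclei, named from markers such as Adipoq, Plin1 and Pparg, made up 17.5%, 11.1%, 12.9% and 14.8% of them. Mammary epithelium was present as well, with 1888, 32, 643 and 288 nuclei like alveolar epithelium, an order that does not follow the labels. Between 172 and 324 barcodes of each library also occurred in another library, 1.94% to 2.52% of its barcodes.

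An antibody is built of 2 kinds of chain, and the constant region of its heavy chain sets its class: μ for IgM, δ for IgD, γ for the IgG subclasses and α for IgA. A naive B cell makes μ and δ chains from one transcript by splicing, and class switching then joins the rearranged variable region to a γ or α gene further along the chromosome. Plasma cells secrete the antibody. Secreted IgA and IgM are held together as polymers by the joining chain, and the polymeric immunoglobulin receptor carries them across epithelia, in mammary gland and gut among others.

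The joining chain bonds to a cysteine next to the end of the secreted α and μ chains, in a tailpiece that the γ chains lack. The last 66 coding bases of the secreted transcripts show this difference between the classes measured here. They are taken from the GENCODE M21 transcripts of build GRCm38, run 5′ to 3′ on the minus strand of chromosome 12 and end with the stop codon. Capitals mark the codon before the last one, which is TGC, a cysteine codon, in Igha and Ighm and GGT in the 4 Ighg genes.

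Igha, chr12:113258768-113258833: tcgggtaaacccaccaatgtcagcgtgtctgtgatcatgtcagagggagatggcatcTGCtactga

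Ighm, chr12:113420867-113420932: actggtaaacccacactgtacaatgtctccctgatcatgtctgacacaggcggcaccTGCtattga

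Ighg1, chr12:113328976-113329041: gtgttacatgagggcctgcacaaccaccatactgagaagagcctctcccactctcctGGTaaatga

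Ighg2b, chr12:113306389-113306454: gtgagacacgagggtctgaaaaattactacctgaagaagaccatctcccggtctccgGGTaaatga

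Ighg2c, chr12:113287389-113287454: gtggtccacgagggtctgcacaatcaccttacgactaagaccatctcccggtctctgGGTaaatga

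Ighg3, chr12:113359665-113359730: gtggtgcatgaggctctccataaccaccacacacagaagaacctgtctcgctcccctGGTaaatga

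The heavy chain genes lie on the minus strand of chromosome 12 in the order of switching, from Ighm at chr12:113418558-113422730 and Ighd at chr12:113406604-113416324 to Igha at chr12:113254830-113260236, the last of them. Jchain lies elsewhere, at chr5:88519809-88527891. Over the coding bases of the secreted transcripts Igha shared 47.8% to 51.4% of aligned positions with the other 5 classes shown, and no identical run longer than 12 bases. The 4 Ighg genes shared 74.2% to 85.6% with each other, and Ighg2b and Ighg2c held a common run of 78 bases. Reads were paired at 150 bases. No source at hand says how reads that match 2 genes were counted. The split among the Ighg genes is therefore less certain than their sum.

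Igha, the α chain of IgA, separated the labels most widely among the members. It had 66 and 20 UMIs in WT-labelled 1 and 2 and 960 and 14566 in KO-labelled 1 and 2. As counts per 1e6 UMIs of the library (CPM) these are 2.98, 2.32, 70.9 and 418. Both KO-labelled libraries lay above both WT-labelled ones, and KO-labelled 2 lay 5.90-fold above KO-labelled 1. The log2 difference, KO-labelled minus WT-labelled, was 6.61 (SE 0.62, edgeR fit, n = 2 libraries a label). It was 4.50 without KO-labelled 2.

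Jchain followed the same order of labels. Its levels were 2.98, 4.75, 23.7 and 105 CPM, from 66, 41, 321 and 3664 UMIs. Again KO-labelled 2 was the highest and the labels did not overlap. The log2 difference was 4.22 (SE 0.51), and 2.47 without KO-labelled 2.

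Ighm and Ighd, the chains of naive B cells, differed less. Ighd was at 52.1, 46.0, 94.5 and 154.0 CPM, a log2 difference of 1.37 (SE 0.47). Ighm was at 24.1, 15.1, 30.5 and 87.1 CPM, a log2 difference of 1.63 (SE 0.45). Neither overlapped between labels, but in Ighm the gap between WT-labelled 1 and KO-labelled 1 was narrow, and the log2 difference fell to 0.40 without KO-labelled 2. For Ighd it was then 0.74.

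Ighg1, a γ chain of class-switched cells, ran the other way. It had 153 and 101 UMIs in the WT-labelled libraries and 9 and 42 in the KO-labelled ones, at 6.91, 11.7, 0.665 and 1.21 CPM. Both KO-labelled libraries lay below both WT-labelled ones, with a log2 difference of -3.15 (SE 0.59) that ranged from -3.93 to -2.73 over the fits that left out 1 library. Ighg2c, at 1.26, 3.13, 0.443 and 1.12 CPM, was also lower in both, by narrow gaps and from 6 to 39 UMIs a library, with a log2 difference of -1.24 (SE 0.67).

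Ighg2b and Ighg3 overlapped between labels. Ighg2b was at 11.9, 2.44, 1.48 and 11.1 CPM, high in 1 library of each label. Its log2 difference of -0.16 (SE 0.60) became 1.71 without WT-labelled 1 and -2.59 without KO-labelled 2. Ighg3 was at 0.542, 1.16, 0.739 and 6.49 CPM, high only in KO-labelled 2. Its log2 difference of 2.36 (SE 0.65) became -0.29 without that library. In KO-labelled 2, 1 nucleus held 185 of the 226 Ighg3 UMIs and 1 nucleus held 235 of the 387 Ighg2b UMIs, so for both genes the level of that library rests mainly on a single nucleus.

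Iglc1, a constant region of the λ light chain, was at 0.632, 0.696, 1.40 and 23.6 CPM. Its log2 difference was 4.38 (SE 0.78), but 0.87 without KO-labelled 2, where 1 nucleus held 391 of the 822 UMIs. Iglc1 (chr16:19061618-19062071, minus strand) lies within the antisense gene 2010309G21Rik. Where counting does not use strand, the reads of these 2 genes cannot be told apart.

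Igkc, the only constant region of the κ light chain, which most mouse antibodies carry, was listed at 0 in all 4 libraries. A count of 0 allows up to 0.136, 0.348, 0.222 and 0.0862 CPM (3 counts a library, counting error only). The Igkj joining segments beside it were at 0 as well, whereas the Igkv variable segments had 206, 248, 318 and 541 UMIs. Igkc (chr6:70726435-70726966, plus strand) lies between exon 1 and exon 2 of Gm30211, a long noncoding RNA gene of the same strand at chr6:70719074-70740554 that also spans the Igkj segments. Gm30211 was counted, with 270, 136, 210 and 1360 UMIs. Whether reads of Igkc were lost to this overlap was not tested.

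**Figure D1:**
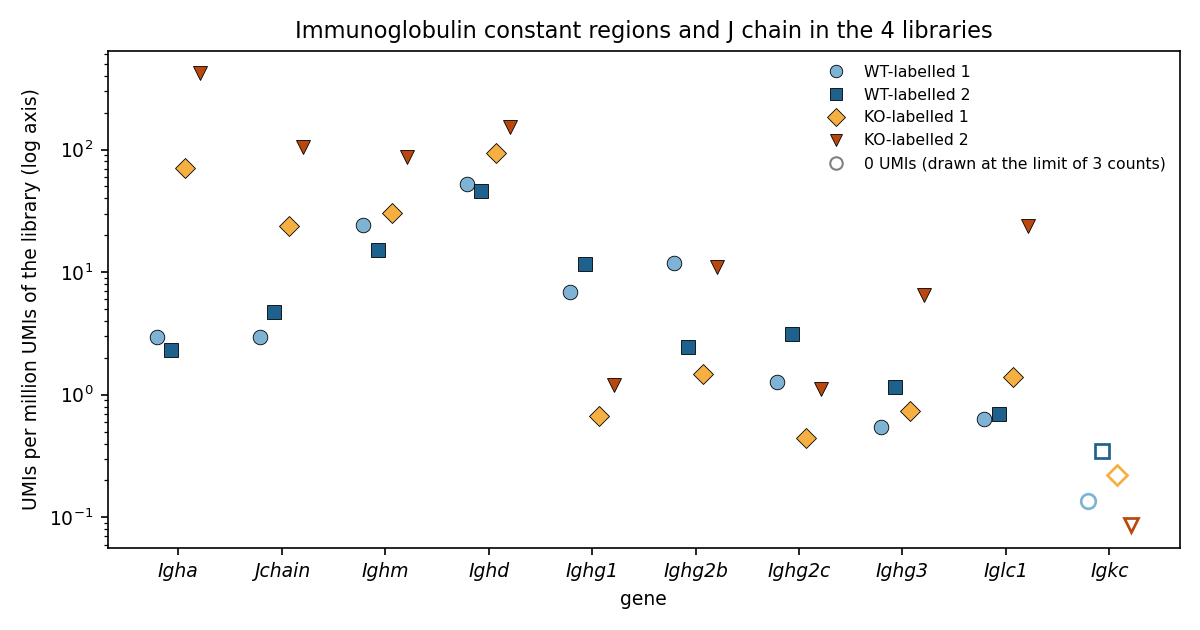
CPM (log axis) for each member in each of the 4 libraries, with open symbols at the limit of 3 counts where a gene had 0 UMIs. Igha spans 2.32 to 418 across libraries, Ighg1 runs from 11.7 in WT-labelled 2 down to 0.665 in KO-labelled 1, and Igkc is at 0 in all 4.

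Of the 9 members with enough counts for the fit, 5 lay higher in both KO-labelled libraries than in both WT-labelled ones, 2 lay lower in both, and 2 overlapped. Among all genes tested 7.27% were higher in both and 14.9% did not overlap. At an adjusted p under 0.05 (edgeR's quasi-likelihood test, Benjamini-Hochberg over all genes) 4 members would be called, with Igha, Jchain and Iglc1 higher and Ighg1 lower. The share called among all genes was 0.103%, of which 0.0712% higher and 0.0321% lower. The list was drawn from this contrast, so nothing is read from these counts.

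The composition of the heavy chain RNA differed between labels in 2 ways. Igha made up 2.99% and 2.83% of the heavy chain constant region UMIs in the WT-labelled libraries and 35.6% and 61.6% in the KO-labelled ones. The exact 95% binomial intervals of the KO-labelled libraries were 33.8% to 37.4% and 61.0% to 62.2%, and those of the WT-labelled libraries reached at most 4.34%. These intervals treat each UMI as a separate draw and leave out the spread between nuclei and between mice. In KO-labelled 2, 10 nuclei held 50.9% of the Igha UMIs. The 4 Ighg genes together made up 20.6% and 22.5% against 1.67% and 2.93%. In CPM, however, the sum of the Ighg genes was 20.6, 18.4, 3.33 and 19.9, with KO-labelled 1 below the other 3. Without the nucleus richest in Ighg2b and the one richest in Ighg3 in each library, a setting chosen after seeing the data, it was 20.01, 17.1, 2.73 and 7.70, and both KO-labelled libraries then lay below the WT-labelled ones. These shares count UMIs and are not scaled to gene length.

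Ighd and Ighm kept a steadier relation to each other. There were 2.16, 3.05, 3.10 and 1.77 Ighd UMIs for each Ighm UMI, a range in which the labels overlapped.

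**Figure D2:**
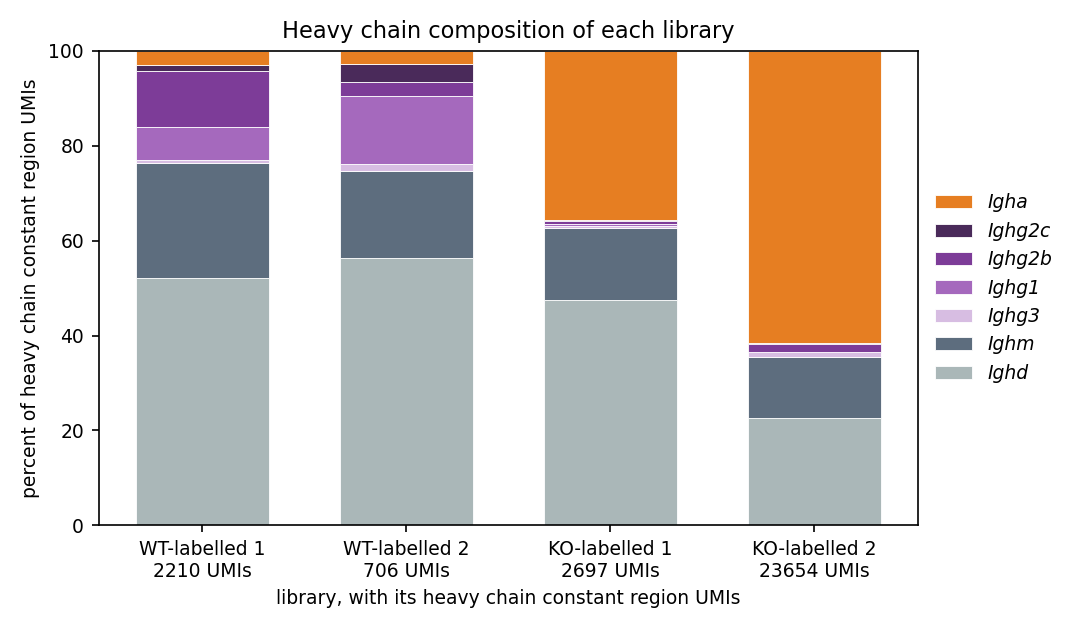
Share of each heavy chain gene among the heavy chain constant region UMIs of each library, in percent, with the number of these UMIs under each bar. The Igha share is 2.99% and 2.83% in the WT-labelled libraries and 35.6% and 61.6% in the KO-labelled ones, and the Ighg genes shrink from over 20% of the bar to under 3%.

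Igha RNA was concentrated in few nuclei, and not only in the KO-labelled libraries. In WT-labelled 1 and 2, 10 nuclei held 74.2% and 95% of only 66 and 20 Igha UMIs. A single nucleus of WT-labelled 1 held 27 of its 66. In KO-labelled 2, nuclei with 20 or more Igha UMIs held 83.9% of all Igha UMIs and 10 nuclei held 50.9%. One nucleus alone carried 1630. In KO-labelled 1 nuclei with 20 or more held 46.3%, and the highest had 105. Jchain was concentrated in KO-labelled 2, where nuclei with 20 or more held 69.5% of its UMIs, while no nucleus of the other libraries had as many. Nuclei with a single Jchain UMI held 68.2%, 48.8%, 29.6% and 12.3% of its UMIs. Nuclei with a single Ighd UMI held 44.8%, 61.2%, 44.8% and 21.7% of that gene's UMIs. Those with a single Ighm UMI held 60.5%, 66.9%, 60.05% and 30.7% of Ighm UMIs.

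**Figure D3:**
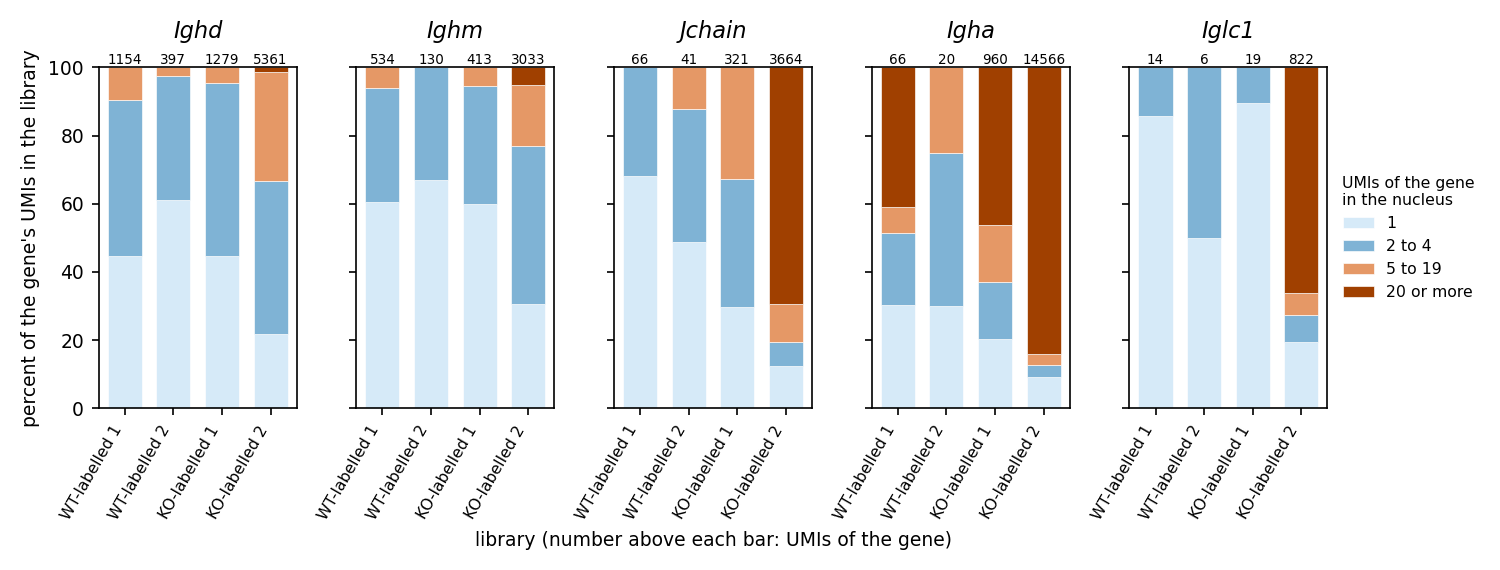
For 5 members and each library, the percent of the gene's UMIs that lay in nuclei with 1, 2 to 4, 5 to 19 or 20 or more UMIs of that gene, with the gene's UMI total above each bar. In KO-labelled 2 nuclei with 20 or more held 83.9% of Igha, 69.5% of Jchain and 66.3% of Iglc1 UMIs, but 5.11% of Ighm UMIs.

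Each nucleus was given a heavy chain class where it had at least 5 heavy chain constant region UMIs and at least 80% of them from 1 gene. By this rule 2, 1, 24 and 124 nuclei were called Igha in the 4 libraries, 151 in all. These are 0.0129% and 0.0150% of the nuclei of the WT-labelled libraries (exact 95% intervals 0.00156% to 0.0465% and 0.000380% to 0.0836%). In the KO-labelled libraries they are 0.200% (0.128% to 0.298%) and 0.781% (0.650% to 0.930%). The intervals treat each nucleus as a separate draw, cover counting error only and leave out the spread between mice. Those of KO-labelled 1 and 2 do not overlap each other, with KO-labelled 2 above KO-labelled 1. Igha was also chosen from this contrast, so no difference between labels is read from the intervals. Of the 151, 3 had a barcode that another library also used.

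The other classes were distributed differently. In WT-labelled 1, 11 of the 42 nuclei with a single class were Ighg2b, 2 were Ighg1 and 21 were Ighd. WT-labelled 2 had only 7 such nuclei. KO-labelled 1 had 12 Ighd nuclei and 1 Ighg2b nucleus beside its 24 Igha nuclei, out of 40. KO-labelled 2 had 218 Ighd, 47 Ighm, 6 Ighg2b, 1 Ighg1 and 1 Ighg3 nuclei out of 397, and a further 256 nuclei in which Ighm and Ighd only together reached 80%. No nucleus was called Ighg2c.

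Igha made up 4.76%, 14.3%, 60% and 31.2% of the nuclei with a single class. This share depends on the rule. With at least 10 UMIs and 90% it was 100% of 15 nuclei in KO-labelled 1 and 79.3% of 111 in KO-labelled 2. With at least 3 UMIs and 50% it was 25.7% and 15.04%.

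Jchain, which the rule did not use, was detected in most Igha nuclei. It was detected in 20 of 24 Igha nuclei of KO-labelled 1 (83.3%, exact 95% interval 62.6% to 95.3%) and in 103 of 124 of KO-labelled 2 (83.1%, 75.3% to 89.2%). In KO-labelled 2 it was detected in 4.13% of Ighd nuclei and 17.0% of Ighm nuclei, although their median depths of 1819.5 and 1796 UMIs were close to the 1948.5 of the Igha nuclei. Nuclei with fewer than 5 heavy chain UMIs had Jchain in 1.15% and 3.28% of cases. The Igha nuclei of KO-labelled 2 had a median of 24 Igha and 7 Jchain UMIs, those of KO-labelled 1 of 13 and 3.

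**Figure D4:**
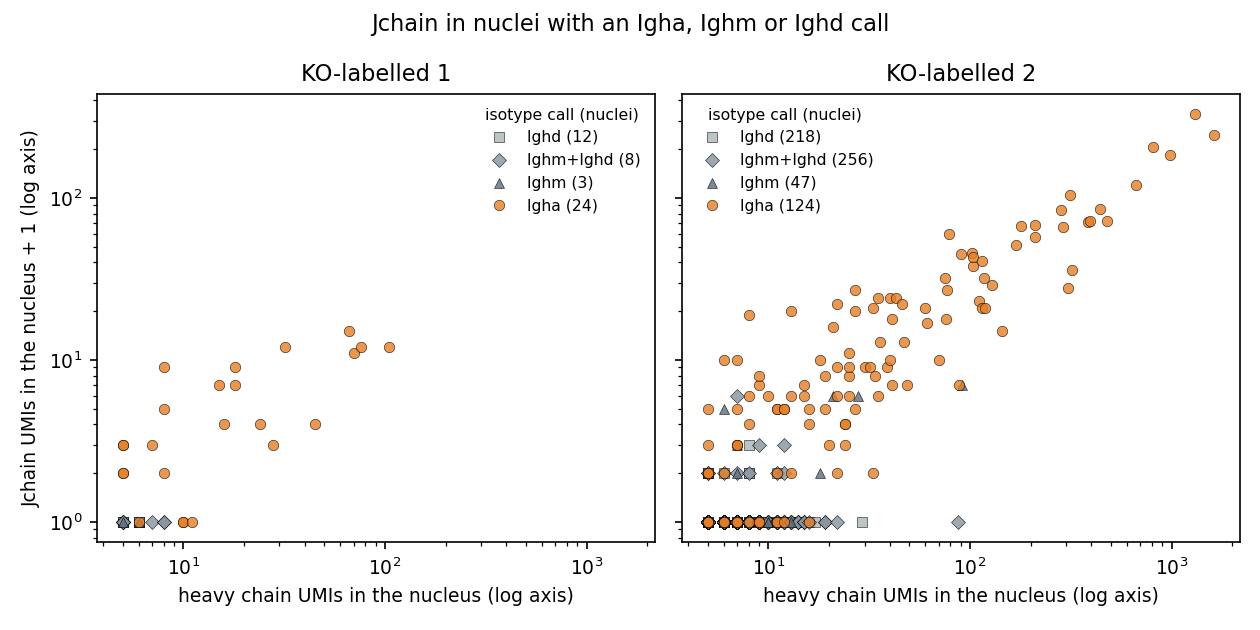
Jchain UMIs plus 1 against heavy chain UMIs, both on log axes, for each nucleus called Igha, Ighm, Ighd or Ighm and Ighd together in the KO-labelled libraries. Igha nuclei rise with more Jchain UMIs as their heavy chain UMIs rise, up to 329, whereas 9 of 218 Ighd nuclei of KO-labelled 2 have any.

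The Igha nuclei also differed from B cell-like nuclei in genes outside the immunoglobulin loci. The B cell-like nuclei, named from B cell markers after clustering without any immunoglobulin gene, numbered 1460, 447, 1145 and 2332. Against those of the same library without an Igha call, the Igha nuclei had higher CPM of 13 of 16 plasma cell markers in both KO-labelled libraries. They had less of 13 of 14 B cell markers, the exception being Ly6d. The B cell-like nuclei had been named from these same 14 markers, so their higher levels were largely set by that choice. This comparison was chosen after these data had been seen, and has no test.

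Xbp1, the transcription factor of the secretory program, was at 431 and 588 CPM in the Igha nuclei of KO-labelled 1 and 2 and at 23.5 and 34.9 in B cell-like nuclei (CPM over UMIs outside the immunoglobulin genes). Mzb1, a chaperone of antibody assembly, was at 107.8 and 124.5 against 6.17 and 12.98. Txndc5, a protein disulfide isomerase, was at 323 and 1027 against 49.4 and 66.4. Prdm1, which shuts down the B cell program, was at 179.6 and 166.0 against 70.4 and 33.1.

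The genes of B cell identity, which had named the B cell-like nuclei, were lower in the Igha nuclei. Pax5 was at 71.8 and 45.0 CPM in the Igha nuclei against 1121 and 1306 in B cell-like nuclei, and Ms4a1, which encodes CD20, at 35.9 and 34.6 against 330 and 746. The values of KO-labelled 1 rest on few counts, with 3 UMIs of Mzb1 and 12 of Xbp1. The plasma cell markers Sdc1, Tnfrsf17 and Derl3 had 0 UMIs in its 24 Igha nuclei and 21, 8 and 26 in the 124 of KO-labelled 2.

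Clustering of all kept nuclei did not set these nuclei apart. Made without immunoglobulin genes, it gave 22 clusters and none that met the plasma cell markers at any of the 3 resolutions tried. This is a limit of the clusters and no count of plasma cells. Of the 151 Igha nuclei, 73 lay in the B cell-like cluster and 36 in cluster 0, an unnamed cluster with a median of 693 UMIs. With immunoglobulin genes kept, 1 cluster of 780 nuclei met the markers, with 24, 11, 178 and 567 nuclei in the 4 libraries. It was not taken as a cell type here, since the genes described here define it.

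The λ light chain was spread unevenly over the Igha nuclei of KO-labelled 2. In 14 of 124 there were at least 5 UMIs of Iglc1, Iglc2 and Iglc3 together, and these held 89.96% of the 727 λ UMIs of all 124. A single nucleus held 393 of the 727, and a further 39 nuclei had 1 to 4 λ UMIs. In KO-labelled 1 none of 24 reached 5. Gm30211, the noncoding RNA gene that spans Igkc, had UMIs in 10 of the 14 and in 62 of the 110 others. As Igkc was at 0, κ and λ nuclei could not be divided further.

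Variable region genes were too sparsely counted to describe clones. In the 124 Igha nuclei of KO-labelled 2, 33 had any Ighv UMI, and 5 could be given a gene by at least 2 UMIs with at least 80% from 1 gene. These 5 nuclei used 5 different genes, Ighv1-55, Ighv1-58 and Ighv1-74 among them. Of 11 nuclei with a light chain variable gene, 4 used Igkv1-110, 3 used Igkv1-117 and 2 used Igkv15-103. No Igha nucleus of the other libraries could be given one.

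Igha RNA was also found outside the nuclei called Igha. These nuclei held 48.5% and 25.0% of the Igha UMIs of the WT-labelled libraries and 62.4% and 87.3% of those of the KO-labelled ones. Over all other nuclei Igha stood at 1.54, 1.74, 26.7 and 53.7 CPM. The labels did not overlap there either, and the log2 difference over these nuclei was 4.68 for Igha and 2.30 for Jchain. Without B cell-like nuclei, the cluster of 780 and every nucleus with 5 heavy chain UMIs, it was 5.28 for Igha, 2.12 for Jchain, 0.86 for Ighm and -3.50 for Ighg1.

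Among B cell-like nuclei, Igha was at 14.05, 3.07, 233 and 3118 CPM, and without the Igha nuclei it was 39.5 and 67.2 CPM in the KO-labelled libraries. Ighd in the B cell-like nuclei was at 671, 445, 777 and 1136 CPM, and Ighm at 259, 73.7, 265 and 574. Ighg1 was at 66.7 and 39.9 against 4.89 and 5.86 CPM. The labels did not overlap in these 4 genes, although for Ighm they nearly met, nor in Jchain and, by a narrow gap, Ighg3. They overlapped in Ighg2b, Ighg2c and Iglc1. Over all nuclei 14.9% of all genes tested did not overlap, and no such share was taken for B cell-like nuclei. Nothing is therefore read from these counts. Among nuclei with at least 1000 UMIs and 500 genes, clustered anew, Igha in B cell-like nuclei was at 82.8, 0, 9.65 and 101.3 CPM, and there the labels overlapped. B cell-like nuclei made up 9.40%, 6.71%, 9.55% and 14.7% of the libraries. A larger number of B cells, or more RNA in each, could both raise the level of Ighm and Ighd over all nuclei, and the sums over all nuclei cannot tell them apart.

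In nuclei of other classes the Igha level varied between classes. Without the Igha nuclei, the KO-labelled 2 library had 35.2 CPM in adipocyte-like nuclei, 52.4 in progenitor-like, 57.3 in T or NK cell-like, 51.8 in macrophage-like and 30.1 in luminal epithelial-like nuclei. KO-labelled 1 had 13.1, 24.8, 16.2, 48.7 and 7.56 CPM. Dendritic cell-like nuclei had 0 UMIs in the 105 of KO-labelled 1, but 69.0 CPM in KO-labelled 2. Alveolar epithelial-like nuclei had 11.2 and 67.5 CPM in KO-labelled 1 and 2. B cell-like nuclei, at 39.5 and 67.2 CPM, were thus not the highest class. In KO-labelled 1 macrophage-like nuclei and blood endothelial-like nuclei, at 47.5 CPM, lay above them. The unnamed cluster 0 stood higher, at 53.4 and 143.5 CPM in KO-labelled 1 and 2, and cluster 15, also unnamed, at 230.6 CPM in KO-labelled 2. Cluster 15 was led by the haemoglobin genes Hba-a1, Hba-a2 and Hbb-bs and had a median of 619.5 UMIs. Its level in KO-labelled 2 rests on 40 Igha UMIs in 240 nuclei. With all nuclei counted, macrophage-like nuclei of KO-labelled 1 stood at 818 CPM and blood endothelial-like nuclei at 750 CPM, levels that rest on 2 and 3 nuclei called Igha.

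Thinned to 500 UMIs a nucleus, the share of nuclei with at least 1 Igha UMI was 0.0462%, 0.0222%, 0.840% and 3.59% among adipocyte-like nuclei, a class that should lack the gene, and 0.435%, 0.127%, 2.13% and 6.16% among B cell-like nuclei. Unthinned, the adipocyte-like shares were 0.0737%, 0.135%, 1.94% and 12.9%, at median depths of 1754, 1683, 1404 and 3568 UMIs. In the KO-labelled libraries the thinned B cell-like share was thus 2.53-fold and 1.72-fold that of adipocyte-like nuclei. In the WT-labelled libraries, where few nuclei had any Igha, it was 9.41-fold and 5.74-fold. These shares include the nuclei called Igha. The part that free RNA in the suspension, or 2 nuclei under 1 barcode, had in the Igha UMIs of other classes was not tested.

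**Figure D5:**
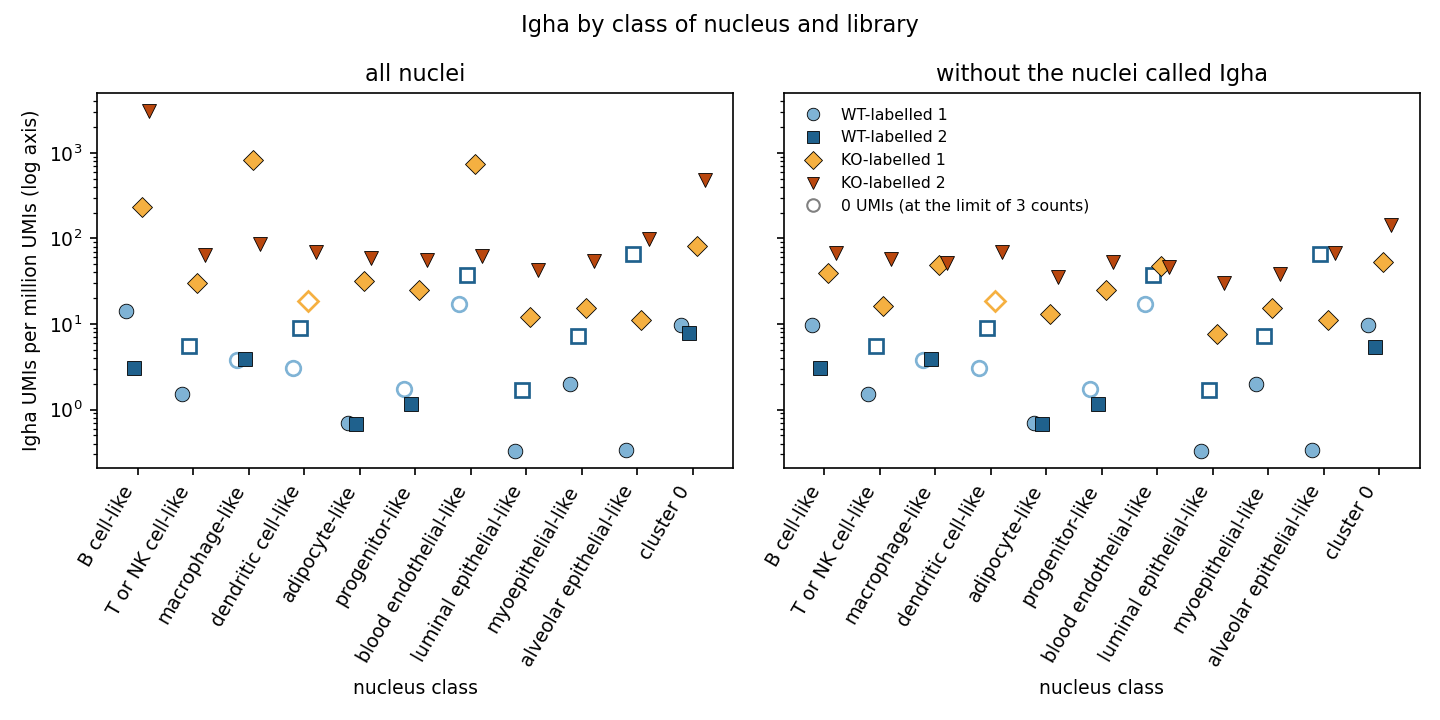
Igha CPM (log axis) by class of nucleus and library, over all nuclei (left) and without the nuclei called Igha (right), for classes with at least 20 nuclei in a library. Open symbols stand at the limit of 3 counts where a class had 0. Without the Igha nuclei, chosen for their high Igha, B cell-like nuclei of KO-labelled 2 stand at 67.2, dendritic cell-like nuclei at 69.0 and adipocyte-like nuclei at 35.2.

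The genes around IgA production were examined in the same fit, as 5 lists of genes that are not members. Of 91 tested, 1 passed an adjusted p under 0.05 (edgeR's quasi-likelihood test), 9 had an unadjusted p under 0.05, and with the DESeq2 Wald test none passed, with 5 at an unadjusted p under 0.05. The one called gene was Irf4, a transcription factor of plasma cells that other immune cells and adipocytes also use. It fell by 2.78 on the log2 scale (SE 0.49, adjusted p = 6.76e-05, edgeR), from 264 and 43.0 to 18.7 and 26.1 normalised CPM. WT-labelled 1 stands far above the rest, and without it the difference was -0.93, adjusted p = 0.9998 (edgeR). Over the alternatives the adjusted p ranged from 9.27e-06 to 1. In the Igha nuclei of KO-labelled 2, Irf4 stood at 193.7 CPM against 40.8 in B cell-like nuclei.

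Of the genes that induce, attract or carry IgA, 24 of 25 were tested and none was called. Of these 14 lay above 0 with a median log2 difference of 0.13, where all genes tested had 53.0% above 0 and a median of 0.02. Pigr, the receptor that carries polymeric IgA across epithelia, was at 9.30, 8.64, 14.03 and 9.58 normalised CPM, a log2 difference of 0.39 (SE 0.48). Ccl28, the epithelial chemokine that attracts IgA plasmablasts to the mammary gland, was at 5.16, 6.04, 9.05 and 8.21, a difference of 0.63 (SE 0.51). Its receptor Ccr10 was at 1.97, 1.98, 1.70 and 1.66, a difference of -0.23 (SE 0.63). Ccl28 did not overlap between labels, yet its difference did not pass the test, adjusted p = 0.999999 (edgeR).

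Cxcl12, a stromal chemokine that holds plasma cells in their niche, differed by 0.74 (SE 0.45), and its receptor Cxcr4 by 0.17 (SE 0.45). Tnfsf13b, which encodes the survival factor BAFF, differed by -0.03 (SE 0.47), and Tnfrsf17, which encodes the plasma cell receptor BCMA, by -0.04 (SE 0.57). All 4 had an adjusted p of 0.999999 (edgeR). Tnfsf13, which encodes APRIL, had too few counts to be tested.

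Of 27 genes of the plasma cell program, 19 lay above 0 with a median of 0.14. Over all nuclei Mzb1 differed by 0.03 (SE 0.57), Xbp1 by 0.05 (SE 0.45), Prdm1 by 0.06 (SE 0.44) and Sdc1 by 0.29 (SE 0.49). For Xbp1 the 4 libraries were at 82.5, 27.6, 40.4 and 74.1 normalised CPM, an order that does not follow the labels. None of these 4 genes was called, although all 4 were higher in the Igha nuclei than in the B cell-like nuclei of KO-labelled 2.

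All 17 genes of B cell receptor signalling lay above 0, with a median of 0.66, but none was called. Cd79b, a signalling chain of the receptor, was at 9.05, 4.79, 8.52 and 29.8 normalised CPM, a difference of 1.46 (SE 0.48, adjusted p = 0.821, edgeR). Its partner Cd79a, at 8.14, 6.56, 8.13 and 15.1, differed by 0.66 (SE 0.49). In both genes KO-labelled 1 lay within the WT-labelled range and only KO-labelled 2 above it. Of 14 genes of the germinal centre and class switching 4 lay above 0, with a median of -0.03. Of 10 immunoglobulin receptors 7 lay above 0, with a median of 0.31.

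Across 65 sums of UMIs, 1 for each class of at least 20 nuclei in each library, Jchain had a Pearson correlation with Igha of 0.854 on the scale of log2(CPM + 1). The 5 genes outside the immunoglobulin loci with the highest values, among 25962 with at least 50 UMIs, were Gm47283 (0.753), Cavin1 (0.676), Cd1d1 (0.663), Gm21887 (0.628) and Gm26754 (0.627). All 5 were higher in both KO-labelled libraries than in both WT-labelled ones, as were 7.27% of all genes tested. Choosing genes by likeness to Igha, which has this order itself, favours such genes, so nothing is read from it. Gm47283 was at 42.4, 28.9, 2245 and 1465 CPM. Cd1d1, which encodes a molecule that presents lipid antigens, was at 18.5, 12.2, 42.1 and 96.0. The sums of 1 library share its depth and its free RNA, so these values describe the 4 libraries.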

How the data were processed

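UMI counts per gene and nucleus were used as the authors deposited them, from libraries made with the Singleron GEXSCOPE nucleus kit, per the labels' protocols. GRCm38 (mm10) and Seurat 4.3.0 are named in the submitters' processing notes. No source at hand names the counting program, its handling of strand or of reads that match several genes, or any removal of free RNA or doublets.

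The deposited barcodes all had at least 500 UMIs. Nuclei with at least 300 genes and at most 10% mitochondrial UMIs were kept. Clusters (scanpy 1.11.5, 2000 variable genes, 30 principal components, 15 neighbours, Leiden resolution 1) were made without 396 immunoglobulin genes, and were named where at least 3 markers of a type were among their 100 leading genes. No doublet caller was run, and an alternative leaves out the 5% of nuclei with the most UMIs. For the contrast between labels, counts were summed per library and fitted with edgeR 4.0.16 (TMM, low-count filter, quasi-likelihood test, Benjamini-Hochberg over 28075 genes), with 2 libraries a label. Each library is titled as a separate mouse. The fit was tested on simulated counts.

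The members and gene lists were chosen with earlier results of these data known. The isotype rule had been written for plasma cell-like nuclei. As no such cluster was found among all kept nuclei, it was applied to all of them. The named genes are the members, every called list gene, a preset list of 16 genes around IgA and plasma cells (1 of them is not reported here), the 5 genes most correlated with Igha and the 3 variable genes used by most Igha nuclei in each library. Other genes named in the comparison of Igha nuclei with B cell-like nuclei were chosen after their values were seen. Of the 53715 gene identifiers, 53620 were found in GENCODE M21, which gave the coordinates. Intervals are exact Clopper-Pearson at 95%, and a count of 0 is given its limit at 3 counts. DESeq2 1.42.0, other filters and left-out libraries were tried as alternatives.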

Additional observations from a re-analysis of the deposited data

How the results depend on the processing

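The number of members above 0 in the contrast between labels was 6 of 9 in the fit reported, and stayed between 5 and 7 over all 14 alternatives, with 5 to 7 when 1 library was left out. None of the 4 members past the threshold changed sign, but the number past it was 0 under the deeper filter, 2 with the replicate block, 3 with DESeq2 size factors, with the DESeq2 Wald test and with no low-count filter, and 2 without B cell-like nuclei, the cluster of 780 and nuclei with 5 heavy chain UMIs. It was 4, 4, 3 and 1 without WT-labelled 1, WT-labelled 2, KO-labelled 1 and KO-labelled 2. The number of list genes called, 1 in the fit reported, was 0 with the DESeq2 Wald test, 0 with the replicate block, 0 under the deeper filter (1000 UMIs and 500 genes a nucleus), and 0 to 1 when 1 library was left out. With the replicate number as a block, 4 genes were called over all genes in place of 29, Igha differed by 5.96 and Iglc1 by 3.09. The correlation of deviations between same-numbered libraries was -0.653, so same-numbered libraries did not deviate alike. Whether the number pairs mice cannot be told from this value. With 2 libraries a label the deviations within a label mirror each other. WT-labelled 1 thus deviated like KO-labelled 2, and WT-labelled 2 like KO-labelled 1, and what they share was not tested. Over all genes, 14 were called with the DESeq2 Wald test, 3 with the deeper filter, and 5 to 18 when 1 library was left out.

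No cluster was named plasma cell-like at any of the 3 resolutions, so the count of 0 nuclei could not change with a library left out. The count was 780 with immunoglobulin genes kept and 1538 with the deeper filter, where 1 of the cluster's 10 leading genes was a plasma cell marker. The mean Igha share among nuclei with a single class in the KO-labelled libraries was 45.6%. It was 20.4% at 3 UMIs and 50%, 89.6% at 10 UMIs and 90%, and 97.8% within the cluster made with immunoglobulin genes, chosen after seeing the data. It was 31.2% to 60% with 1 KO-labelled library left out. Resolution 2 gave no cluster to call isotypes in. The mean Igha share of adipocyte-like nuclei in the KO-labelled libraries, 2.21% when thinned, was 7.40% unthinned, and 0.840% to 3.59% with 1 of them left out. The mean Igha level of B cell-like nuclei in these libraries was 1676 CPM, and 233 to 3118 with 1 of them left out. It was 55.5 with the deeper filter (where WT-labelled 1 stood at 82.8), 44.6 with immunoglobulin genes kept and 53.3 without the Igha nuclei. With the deeper filter the cluster that met the plasma cell markers was at 381 and 13595 Igha CPM in KO-labelled 1 and 2. It lay above B cell-like nuclei in both, but in KO-labelled 1 blood endothelial-like nuclei stood higher, at 1021 CPM. In WT-labelled 1 the cluster was at 37.1 CPM, below B cell-like nuclei, and in WT-labelled 2 at 14.98 CPM, above them. With immunoglobulin genes kept the cluster of 780 stood at 5076 and 21649. With 1 library left out, the lone library of a label is assumed to vary like the others. Low counts limit several members, with 6 to 39 Ighg2c UMIs a library and 6 to 19 Iglc1 UMIs in 3 libraries.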

Other observations

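Iglc2, another λ constant region, was at 4.56, 3.94, 5.84 and 15.3 CPM in WT-labelled 1 and 2 and KO-labelled 1 and 2, and Iglc3 at 1.40, 0.696, 2.22 and 6.29. Iglc1 made up 9.59%, 13.04%, 14.8% and 52.3% of the UMIs of these 3 λ genes. Without the nucleus with 391 Iglc1 UMIs the last value was 36.6%. Iglc2 and Iglc3 share 96.2% of their coding bases, so that their split is uncertain. Ighe, the ε chain of IgE, had 18, 12, 11 and 10 UMIs.

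Of the nuclei with at least 6 of the 16 plasma cell markers outside the immunoglobulin loci, there were 2, 6, 3 and 94 in the 4 libraries. In KO-labelled 2, 57 of these 94 were called Igha, 6 had another single class and 23 had fewer than 5 heavy chain UMIs. Their median depth was 3669.5 UMIs. This gate was chosen after seeing the data.

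Gm43388, a long noncoding RNA gene of the λ locus at chr16:19212660-19236776, was at 81.9, 35.8, 33.0 and 104.6 CPM, an order that does not follow the labels.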
